A study of Oryza sativa Japonica Group with 28 samples.

Results

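The COPT family of rice comprises 7 genes for small copper transporters, COPT1 (Os01g0770700), COPT2 (Os01g0770800), COPT3 (Os03g0370800), COPT4 (Os04g0415600), COPT5 (Os05g0424700), COPT6 (Os08g0455900) and COPT7 (Os09g0440700). They were chosen by identifier, and all 7 are among the 45990 genes of the deposited table. The same 7 genes, and no others, carry the table's annotation for copper ion transmembrane transport. The numbers COPT1 to COPT7 follow the order of the chromosomes, and other numberings of the same family exist, so the identifier is the reference here. The gene models are short, from 531 bases (COPT6) to 873 bases (COPT5). The first pair have consecutive identifiers on chromosome 1, and the other members lie on chromosomes 3, 4, 5, 8 and 9.

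COPT proteins are the plant members of the CTR family, which carries reduced copper across membranes into the cytosol, with several subunits forming a shared pore. Copper that has entered is handed to chaperones, to P-type ATPases that pump it into organelles or out of the cell, and to enzymes such as superoxide dismutase and plastocyanin. In the developing grain, the maternal vascular trace unloads nutrients that then pass through the nucellar epidermis to the filial endosperm and aleurone, which share no vascular connection with the mother plant.

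Grains of Oryza sativa cv. Nipponbare, untreated and of 1 genotype, were dissected by laser capture into nucellar epidermis (NE), cross cells (CC), ovular vascular trace (OVT), endosperm (EN) and, in the oldest grains, aleurone layer (AL). Grain age was 4, 8 or 16 days after flowering (DAF). RNA-seq gave 28 libraries in 13 groups. NE has 3 libraries per stage, OVT has 3, 2 and 1 in order of age, CC has 2, 1 and 2, EN has 1, 2 and 2, and AL has 3. By the study's methods each preparation pooled 3 grains and the libraries of a tissue are biological replicates, while the labels do not say which came from separate plants, so p-values measure the spread between these libraries. In captured tissue, fewer cells of a type and less RNA per cell cannot be told apart.

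Values are reads per gene multiplied by 1 factor per library, and what 1 read is worth ranged from 0.0441 to 11.1 between libraries. The estimated depth was 815257 to 97250200 reads per library (median 6868650). A value of 0 was read against 3 reads of its library, which correspond to 0.132 to 33.4, and intervals given for single libraries are exact (Clopper-Pearson) 95% binomial intervals. Both cover the error of counting reads only. They cover neither the spread between libraries nor the PCR amplification of the cDNA, by which several reads can stem from 1 molecule. The file headers also tag each library low, mid or high, and do not say what the tag means. The tag high is on OVT MM13 of 4 DAF, OVT MM21 and CC MM21 of 8 DAF and OVT MM17 of 16 DAF. Every member comparison with the other tissues or stages that passed in the main fit contains such a library. The part of the tag in the results was not tested. CC at 8 DAF (MM21) was the shallowest library. OVT at 16 DAF (MM17) had the largest value per read, the fewest genes above 0 (9044) and 1027000 as the sum of 3 endosperm markers, above both OVT groups of earlier stages (23.0 to 35100), and a table of the study lists it as excluded although its labels keep it. The day label of CC MM05 says 8 DAF, while its title and its file header say 4 DAF. The paper's methods also list 2 CC replicates at 4 DAF and 1 at 8 DAF, and 4 DAF was used. At 4 and 8 DAF the markers of CC, OVT and EN had their highest group means in their own tissue. At 16 DAF the aleurone markers reached 15340 in NE and 19970 in the OVT library, against 8623 to 17780 in AL.

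The family was sparsely represented. Its 7 members held 1313 of 407539463 estimated reads, and 58 of the 196 member values were above 0, of which 16 rested on 1 to 3 reads. COPT7 held 80.2% of the family's reads, COPT4 7.16%, COPT3 6.78%, COPT1 5.79% and COPT6 0.0762%. COPT2 and COPT5 were at 0 in all 28 libraries, as were 24.3% of all genes. Only COPT3, COPT4 and COPT7 passed the filter on low values (above 10 with at least 10 reads in 1 library), and COPT3 and COPT4 passed it through 1 library each, OVT at 4 DAF (MM06) and CC at 4 DAF (MM05).

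Per kb of gene model, the scale on which members can be compared, the summed family value was 129 ± 57.4 (SD, n = 3) in OVT at 4 DAF, 113 in the lone CC library at 8 DAF and 89.8 ± 44.6 (n = 2) in OVT at 8 DAF. The lone OVT library of 16 DAF was at 0, and CC had 41.6 ± 1.97 at 4 DAF and 58.2 ± 34.1 at 16 DAF (n = 2 each). In NE it was 58.9 ± 5.61 (n = 3) in the youngest grains, 32.8 ± 18.2 in the middle stage and 8.40 ± 11.5 in the oldest, and the NE marker MADS29 ranged from 1085 to 2518, 393 to 2427 and 35.8 to 1115 in the same order. In EN the group means lay between 1.21 and 4.72, and in AL the value was 11.1 ± 7.03 (n = 3). EN had 7 family reads in 5 libraries, against 622 in 9 NE libraries and 440 in 6 OVT libraries. These reads are not scaled for depth, and 332 of the NE reads were COPT7 reads of the deepest library (16 DAF, MM18).

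**Figure D1:**
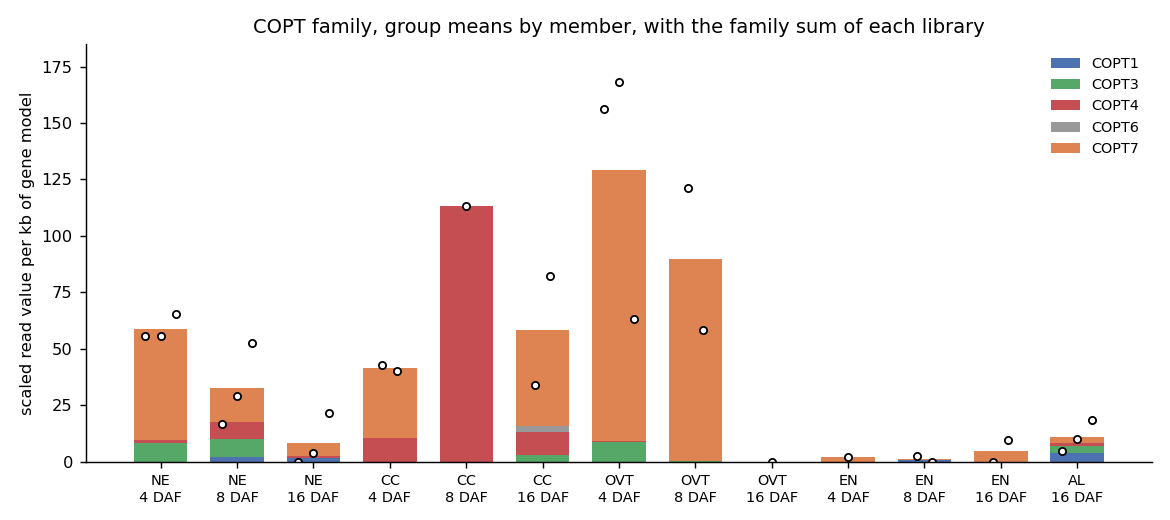
Stacked bars give the mean scaled read value per kb of gene model (linear axis from 0) of COPT1, COPT3, COPT4, COPT6 and COPT7 in each of the 13 groups, and open circles the family sum of each library. COPT7 fills most of the bar in OVT at 4 and 8 DAF, COPT4 fills the bar of the single CC library at 8 DAF (113), and EN bars stay at or below 4.72.

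The family also differed in makeup. COPT7 accounted for 84.9 to 100% of the family value per kb in the 5 OVT libraries of 4 and 8 DAF. In the 3 AL libraries it accounted for 12.9 to 32.6%, with COPT1 at 14.9 to 61.3% and COPT3 at 12 to 42.0%. In NE at 8 DAF no single member led throughout: COPT7 made up 59.6, 10.6 and 62.1% in MM20, MM21 and MM22, and COPT3 made up 42.9% in MM21. These shares rest on few reads per library and were not tested.

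COPT7, a copper transporter that needed no partner of the family in a yeast uptake assay, was the most abundant member and was highest in the vascular trace. In OVT at 4 DAF its values were 125, 116 and 51.4 in MM05, MM06 and MM13, from 152, 149 and 16 reads. In OVT at 8 DAF they were 98.5 and 46.4 in MM21 and MM22, from 24 and 78 reads. At 4 DAF, OVT MM05 and MM06 carry a title prefix ending in X, found only at that stage, and OVT MM13 the prefix ending in B. NE at 4 DAF is split by prefix in the same way, and there MM13 was highest (53.1). The lone OVT library of 16 DAF was at 0, where 3 reads would have given 33.4, below all 5 earlier OVT libraries.

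In NE, COPT7 was 21.5, 45.2 and 53.1 in the libraries of 4 DAF, and 8.08, 2.51 and 26.5 in those of 8 DAF. In NE at 16 DAF it was 0, 0 and 14.7. The ranges of neighbouring stages overlapped. The 16 DAF libraries of NE differed from each other by more than counting error: MM18 had 332 reads (interval 13.1 to 16.3), while in MM04 and MM17 3 reads would have given at most 1.51. The markers differed alongside: the 3 aleurone markers summed to 8307 and 15340 in MM04 and MM17 but 1450 in MM18, and MADS29, the NE marker, was 377.5 and 35.8 against 1115. Their part in the COPT7 values was not tested. In CC it was 22.4 and 28.1 at 4 DAF, and 20.4 and 48.1 at 16 DAF. The CC library of 8 DAF was at 0 with a limit of 28.5, so a level like that of 4 DAF was not detectable at that depth.

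COPT7 had few reads in EN and AL. In EN it was 1.57 in the library of 4 DAF, 0.869 and 0 in those of 8 DAF, and 0 and 7.67 in those of 16 DAF, each from at most 3 reads. The zeros allow up to 21.7 (8 DAF, MM22) and 4.89 (16 DAF, MM17), and the interval of 7.67 reaches 27.7, so at this depth some EN libraries cannot be told from CC. In AL it was 1.23, 1.05 and 4.31, below both CC libraries of that stage.

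**Figure D2:**
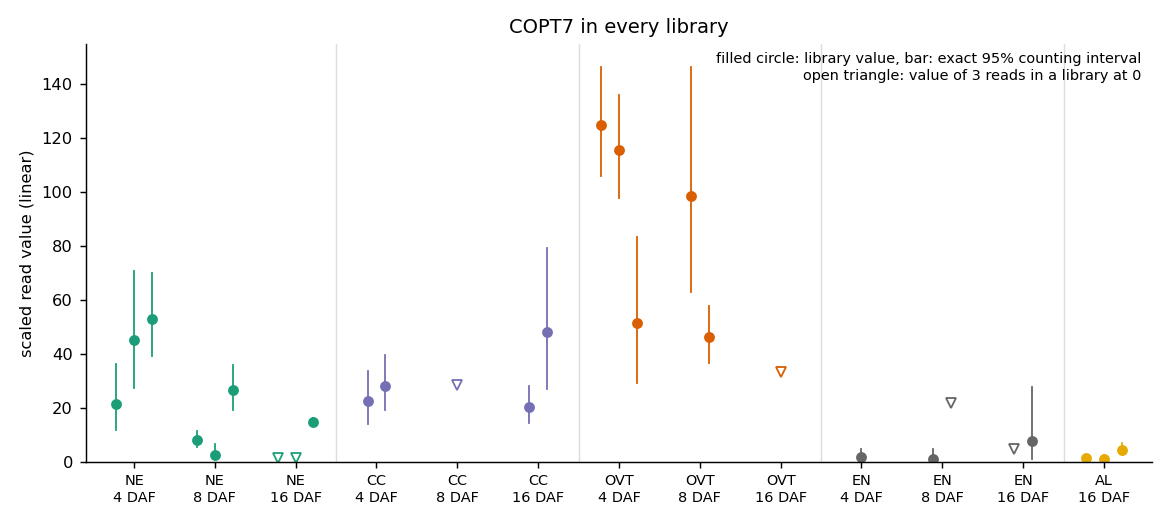
Scaled read value of COPT7 (linear axis) in every library, by tissue and stage, with exact 95% counting intervals, and open triangles at the value of 3 reads for libraries at 0. The 5 OVT libraries of 4 and 8 DAF lie between 46.4 and 125, and the OVT library of 16 DAF is at 0 with a limit of 33.4.

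Fitted on log2(value + 10) with limma, COPT7 was higher in OVT than in the mean of NE, CC and EN at both early stages. At 4 DAF the log2 fold change was 1.91 ± 0.55 (SE), with adjusted p = 0.0251 (Benjamini-Hochberg over all tested genes), and group means of 97.4 against 22.2. At 8 DAF it was 2.61 ± 0.63, with adjusted p = 0.00967, and 72.5 against 4.27. The 4.27 holds the CC library and EN MM22, both at 0, where 3 reads would have given 28.5 and 21.7. The mean of the other tissues may therefore be higher. By single pairs at 4 DAF, NE and CC relative to OVT were at -1.08 ± 0.62 and -1.53 ± 0.69, and neither passed (adjusted p = 0.356 and 0.21). OVT was 3.13 ± 0.87 above the lone EN library. At 8 DAF NE relative to OVT was at -1.95 ± 0.69 and did not pass (0.0906). OVT was 2.91 ± 0.76 above EN (0.0125), and the lone CC library was at -2.97 ± 0.92 relative to OVT. Among all 27527 tested genes, 6.07% were higher in OVT than in the mean of the other tissues at 4 DAF and 5.76% at 8 DAF. At 16 DAF the difference was -0.97 ± 0.81, with adjusted p = 0.498.

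The 4 DAF call was lost without OVT MM05 (1.71, adjusted p = 0.0857) or without OVT MM06 (1.76, 0.0783), with adjusted p of 0.0177 to 0.0857 over the libraries left out, and the 8 DAF call was lost without OVT MM21 (2.14, 0.145; range 0.00669 to 0.145). Both calls were lost with limma's voom on the estimated reads (adjusted p = 0.123 and 0.146) and with upper-quartile factors (0.0698 and 0.0649). The 4 DAF call was also lost with a pseudocount of 1 (0.122), with the replicate block or with CC MM05 at 8 DAF (0.0673). Over all 10 alternatives, voom included, the ranges were 0.00754 to 0.123 and 0.00248 to 0.146. Both OVT markers, the cell-wall invertase GIF1 (Os04g0413500) and the copper-nicotianamine transporter YSL16 (Os04g0542800), were above 0 in each of these 5 libraries, with sums of 766 to 3794 at 4 DAF and 714 to 743 at 8 DAF, against 13.8 to 1052 in NE at 4 DAF. The part of tissue mixing in the COPT7 values was not tested.

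Across stages, COPT7 was lower in OVT at 16 DAF than at 4 and 8 DAF (log2 fold change -3.15 ± 0.83, limma adjusted p = 0.00759), a direction shared by 12.3% of tested genes, whose median was -0.58. Because that library was at 0, its limit is the safer basis: 3 reads would have given 33.4, which is 2.55-fold below the mean of the earlier stages (84.9). The exact interval of the zero reaches 41.0, and that of OVT MM13 at 4 DAF reaches down to 29.4. Neither covers the spread between libraries, so no smallest fold is shown. The comparison rests on 1 library, in which GIF1 was at 0 and YSL16 was 211. Its endosperm and aleurone markers were high, and the part of these markers in the result was not tested. The call was lost with voom and with the replicate block, and was the same in 8 of 10 alternatives. Between OVT at 4 and 8 DAF no difference passed (0.37 ± 0.69, adjusted p = 0.979). In NE the 4 DAF group against the later stages gave 1.54 ± 0.53 (adjusted p = 0.108), and the 16 DAF group against the earlier stages gave -1.20 ± 0.53 (0.225).

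COPT4, a copper transporter that took up copper together with COPT6 in the yeast assay, was highest in the cross cells. The single CC library of 8 DAF had 85.6, from 9 reads (interval 39.1 to 162). The other CC libraries had 11.7 and 4.25 at 4 DAF (MM05, MM13), and 2.21 and 12.8 at 16 DAF (MM17, MM18). Their counting intervals reached at most 32.9, below that of the 8 DAF library, and do not cover the amplification of the cDNA.

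COPT4 was next highest in NE at 8 DAF, with 1.30, 8.77 and 7.11 in MM20, MM21 and MM22. At 4 DAF only MM05 had reads in NE (3.07, 2 reads), and at 16 DAF the values were 0, 1.01 and 0.574. In OVT 1 read was found in 6 libraries (0.822, MM05 of 4 DAF), and EN was at 0 in all 5 libraries. AL had 0.308, 0.522 and 2.03. The CC values of 4 and 16 DAF overlapped those of NE at 8 DAF. All 5 CC libraries lay above the AL libraries, but the closest could not be told apart. The intervals were 0.601 to 5.65 for CC MM17 of 16 DAF and 0.876 to 4.00 for AL MM18. AL against CC at 16 DAF did not pass by limma (-0.61 ± 0.34, adjusted p = 0.375).

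**Figure D3:**
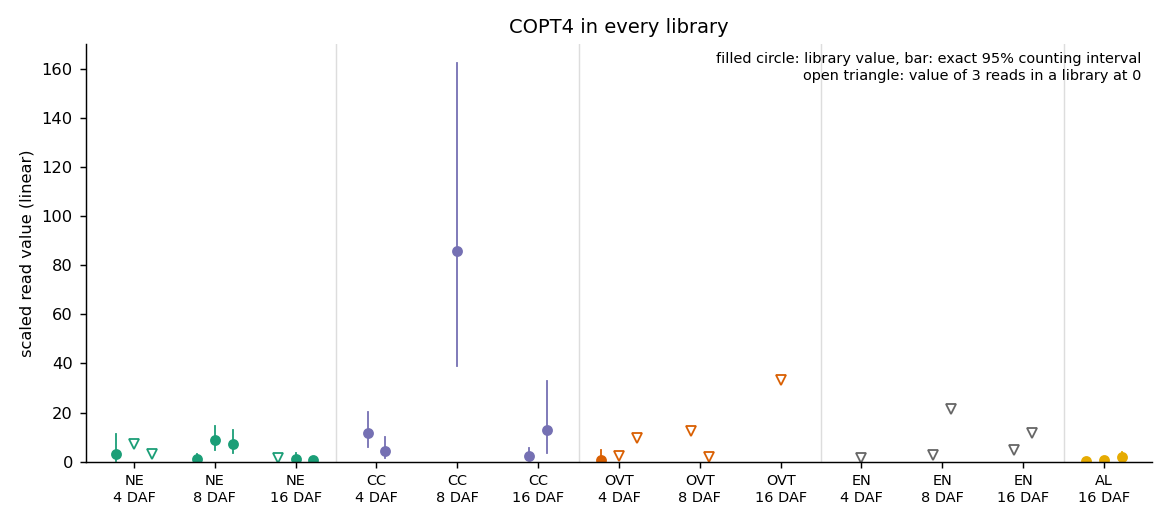
Scaled read value of COPT4 (linear axis) in every library, by tissue and stage, with exact 95% counting intervals, and open triangles at the value of 3 reads for libraries at 0. One CC library of 8 DAF stands at 85.6, and every other library is at or below 12.8.

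By limma on log2(value + 10), COPT4 at 8 DAF was higher in CC than in the other tissues by 3.05 ± 0.40 (adjusted p = 1.03e-05, means of 85.6 and 1.91), a call shared by 7.44% of tested genes. The CC group is 1 library here, and its p-value takes the spread from the other groups. It was lower in OVT and in EN than in the other tissues, by -1.29 ± 0.31 each (adjusted p = 0.00922 and 0.00811), where 4.08% and 7.44% of genes were lower. Both of these groups were at 0, where 3 reads per library would have given means of 7.05 in OVT and 12.1 in EN, against a mean of 30.4 in the other tissues that was carried by the CC library. In NE at 8 DAF COPT4 was at most 8.77, so neither group is shown to lie below NE. Within CC, the 8 DAF group was higher than the other stages by 2.48 ± 0.41 (adjusted p = 0.000649), as were 2.55% of genes. The 16 DAF group was lower by -1.30 ± 0.35 (adjusted p = 0.0341), as were 2.79%.

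COPT4 passed the filter on low values only through a CC library (MM05 of 4 DAF), so its tests of CC are not independent of the filter. These 5 calls all contain the CC library of 8 DAF and could not be formed without it. The 3 cross-cell markers also had their highest sum there (40290, against 12460 to 14720 at 4 DAF and 4164 to 5690 at 16 DAF). The OVT pair was also higher there than in the other CC libraries (475, against 31.5 to 157), as were the endosperm markers relative to CC at 4 DAF (35210 against 1785 to 5908). The part of cell content in the result was not tested. With voom none of them passed (adjusted p = 0.172 to 0.767). Upper-quartile factors ended the OVT call (0.0553) and both CC stage calls (0.0708 and 0.188), and a pseudocount of 1 ended both CC stage calls (0.107 and 0.339). The CC call at 16 DAF was also lost with trimmed-mean factors (0.0831) and with the title prefix as a covariate (0.0926). With MM05 placed at 8 DAF by its day label, 4 of the 5 were lost. The difference between CC and the other tissues at 8 DAF was the exception, and in that run its CC group holds the library that passed the filter. The replicate block ended the EN call and both CC stage calls. The OVT call was lost without OVT MM21 (adjusted p = 0.0738), the EN call without EN MM20 or MM22 (0.104 and 0.116), and the CC call at 16 DAF without CC MM05 (0.0857), CC MM17 (0.305), either EN library of 8 DAF (0.0511 and 0.0509) or AL MM17 (0.0502). At 4 and 16 DAF the CC groups, which have 2 libraries each, were at 0.76 ± 0.31 and 0.72 ± 0.31 above the other tissues (adjusted p = 0.312 and 0.161).

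COPT3, which also acted with COPT6 in yeast, reached 10 reads in 3 libraries only. It was 13.8 (9 reads), 0 and 0 in NE at 4 DAF, and 0.822, 14.0 and 0 in OVT at 4 DAF. In NE at 8 DAF all 3 libraries had reads, at 0.522, 6.89 and 5.82, and at 16 DAF only MM18 did (0.397). Within groups the libraries thus differed as much as the groups did.

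CC had COPT3 reads in 1 of 5 libraries (3.31, MM17 of 16 DAF), OVT at 8 DAF had 1 read (0.595, MM22) and EN had none. AL had 0.308, 1.05 and 4.31. No comparison passed for COPT3: its largest log2 fold change over 28 comparisons was 0.48 ± 0.31, for NE at 8 DAF against the other tissues (adjusted p = 0.46), and 0 of the 28 had an unadjusted p under 0.05 by limma. COPT3 and COPT4 were above 0 together in 10 libraries, of 12 and 15 in which each was found. This is not particular to the pair: COPT7 was above 0 in all 12 libraries with COPT3, and COPT4 in 7 of the 8 with COPT1. Both COPT3 and COPT4 were lowest in MM20 among the 3 NE libraries of 8 DAF.

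COPT1, known in rice as a plasma membrane copper importer that binds the sugar transporter SWEET11 (Xa13), was found in AL, NE and EN. AL was the only group at 16 DAF with reads in every library, at 1.39, 3.92 and 1.78 from 9, 15 and 7 reads. NE had 2.61, 1.25 and 0 at 8 DAF and 0, 1.51 and 1.28 at 16 DAF, the last from 29 reads in the deepest library, and was at 0 in all 3 libraries at 4 DAF. One read was found in EN (0.869, MM20 of 8 DAF). The AL and NE ranges at 16 DAF overlapped, and in CC and OVT, where all libraries were at 0, 3 reads would have given 1.65 to 33.4, so levels like those of AL were mostly not detectable there.

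**Figure D4:**
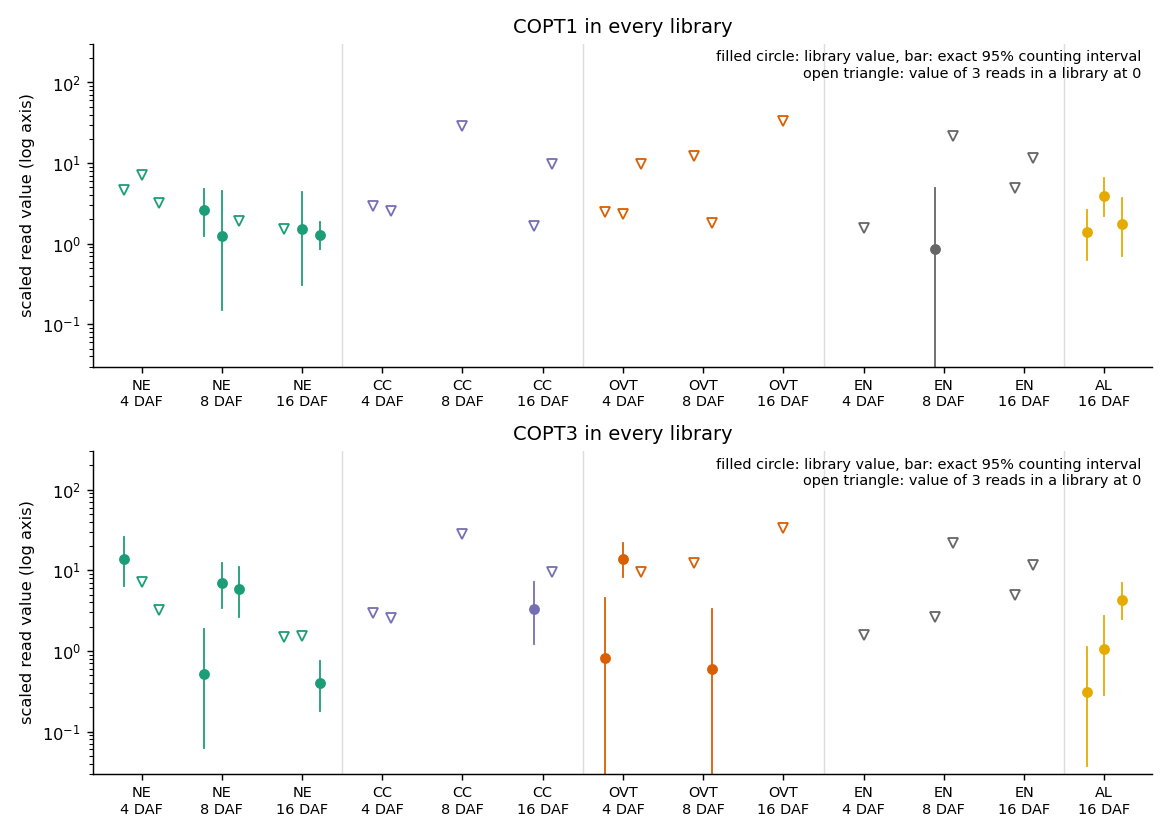
Scaled read values of COPT1 (upper panel) and COPT3 (lower panel) in every library on a log axis, with exact 95% counting intervals, and open triangles at the value of 3 reads for libraries at 0. COPT1 reaches at most 3.92 and COPT3 at most 14.0, and many triangles lie above the measured values.

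COPT6, the partner of other members in yeast, had 1 read in the series (3.21, CC at 16 DAF, MM18). For COPT2 and COPT5, which were at 0 throughout, the deepest library (NE at 16 DAF, MM18) allows at most 0.132. COPT5 is known, like COPT1, as an importer that binds SWEET11. The treatment of reads that match several genes is not given in the sources used here, and reads shared between members of the family may have been lost or assigned to another member.

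Over the members as a list, COPT4 and COPT7 varied among the 13 groups by the moderated F test of limma (adjusted p = 0.000369 and 0.00132) and COPT3 did not pass (0.877), so 2 of 3 tested members were called, where 48.1% of all tested genes were. In the 12 comparisons of a tissue with the other tissues of its stage, 5 of 36 member tests passed (13.9%, against 8.59% over all genes), 3 of them higher and 2 lower. In the 12 comparisons of a stage with the other stages of its tissue, 3 of 36 passed (8.33%, against 6.05%), 1 higher and 2 lower. These shares were near the background, so they are no result about the family as a whole.

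AL was compared with each other tissue at 16 DAF, and 0 of 12 member tests passed by limma, where 7.81% did over all genes. One had an unadjusted p under 0.05, COPT7 in AL against CC (-1.80 ± 0.69, adjusted p = 0.158), and voom also called 0. With no filter on low values COPT1 entered the fit, and its difference between AL and EN passed (0.30 ± 0.09, adjusted p = 0.0424). Both EN libraries were at 0, however, and 3 reads there would have given 4.89 and 11.5, above all 3 AL values, so a higher level in AL than in EN is not shown.

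**Figure D5:**
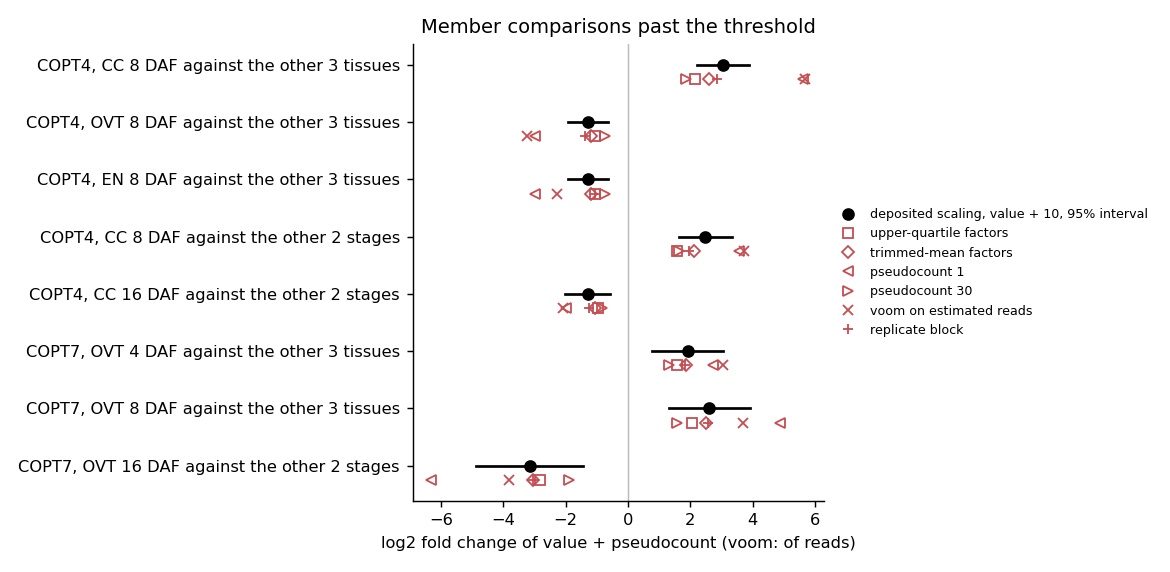
Log2 fold change (x axis) of COPT4 and COPT7 in the 8 comparisons that passed, as black points with 95% intervals, and the same comparisons under 6 alternatives as red symbols. Each alternative keeps the side of 0, and the size for COPT7 in OVT at 16 DAF ranges from -6.31 to -1.88.

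Ordered by group mean, COPT7 ran from OVT at 4 DAF (97.4 ± 40.1) to OVT at 8 DAF (72.5 ± 36.9), NE at 4 DAF (39.9 ± 16.4), CC at 16 DAF (34.3 ± 19.6) and CC at 4 DAF (25.2 ± 4.03), and then NE at 8 DAF (12.4 ± 12.6), with NE at 16 DAF, EN and AL below 5 on average. None of the 10 neighbouring pairs above 0 differed by limma (adjusted p of 0.607 to 1). For COPT4 the first pair, CC at 8 DAF over CC at 4 DAF, differed (2.44 ± 0.45, adjusted p = 0.00318), as did 1.57% of genes in that direction. The 6 later pairs, from CC at 4 DAF (7.96 ± 5.24) through CC at 16 DAF (7.52 ± 7.52), NE at 8 DAF (5.73 ± 3.92) and down to OVT at 4 DAF (0.274 ± 0.475), did not (0.628 to 1). For COPT3 the order began with OVT and NE at 4 DAF (4.94 ± 7.85 and 4.61 ± 7.99) and NE at 8 DAF (4.41 ± 3.41), and none of 6 neighbouring pairs differed.

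The change between stages was also compared between tissues, and 4 of 36 member tests passed by limma, against 3.61% over all genes. Of these, 3 were COPT4 and 1 was COPT7, and each involved the single CC library of 8 DAF.

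The genes most alike in pattern to a member were taken by Pearson's r of log2(value + 10) over the 28 libraries, as a description of libraries that share depth and scaling. For COPT7 they were Os09g0487900 (r = 0.888), Os04g0605100 (0.887) and Os02g0673700 (0.882), the latter pair annotated to regulation of transcription. Their group means were highest in OVT at 4 DAF (765 and 460 for the first and the third) or at 8 DAF (73.1 for Os04g0605100). Over the 13 group means r was 0.923 to 0.950. For COPT4 they were Os03g0362200 (0.935), Os03g0711150 (0.933) and Os12g0480100 (0.923), each highest in the CC library of 8 DAF, at 799, 143 and 85.6. Their means over all 28 libraries were 30.5, 5.82 and 3.93, so that 1 library weighs heavily in these r. For COPT3 they were Os08g0526150 (0.876), Os01g0607800 (0.820) and Os01g0595900 (0.812), each highest in the OVT library MM06 of 4 DAF, the library with the highest COPT3 value. Between the tested members themselves r was 0.227 for COPT3 with COPT7, 0.029 for COPT3 with COPT4 and -0.118 for COPT4 with COPT7.

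Of the 6 genes annotated to copper ion transport, which are 4 P-type ATPases and 2 with copper chaperone activity, all 6 were tested. At 4 DAF in OVT, where COPT7 was higher, 1 of the 6 was higher (median 0.24, against -0.20 over all genes, 11.7% of which were called in either direction), and at 8 DAF in OVT 1 was lower (-0.02 against -0.13, 9.84% called). In the CC library of 8 DAF, where COPT4 was highest, 2 were lower against the other tissues (-1.70 against -0.21, 9.37% called) and 0 against the other stages (-1.66 against -0.32, 3.50% called), with 0 called in CC at 16 DAF (1.32 against -0.04, 3.96% called). In EN at 8 DAF 1 was higher (0.29 against -0.08, 12.9% called), and in OVT at 16 DAF 1 was higher and 1 lower (-1.05 against -0.58, 20.5% called).

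Of these, the copper ATPase Os02g0196600 was 781.7 to 1667 in the OVT libraries of 4 DAF, and 2.46 ± 0.72 above the other tissues on the log2 scale (limma adjusted p = 0.0262). Os04g0556000 (OsHMA5), a copper exporter that loads copper into the xylem in rice, was 4.76 and 20.5 in the OVT libraries of 8 DAF, and -3.09 ± 0.91 relative to the other tissues (0.0317), opposite to COPT7. YSL16 was 649 to 3042 in OVT at 4 DAF and 604 and 678 at 8 DAF, and higher than in the other tissues by 5.51 ± 0.62 (8.94e-07) and 4.52 ± 0.71 (0.000141). The copper-binding electron carrier Os06g0101600 (plastocyanin), which is also 1 of the cross-cell markers, was 5667 in the CC library of 8 DAF, and higher than in the other tissues by 7.97 ± 1.07 (1.40e-05). Of 134 genes annotated to copper ion binding, 70 were tested, and 10 were higher and 6 lower in OVT at 4 DAF, where 11.7% of all genes were called in either direction. In OVT at 8 DAF 5 were higher and 5 lower (9.84% over all genes), and in CC at 8 DAF 3 were higher and 2 lower than in the other tissues (9.37%).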

How the data were processed

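The study captured 5 grain tissues by laser, amplified cDNA by PCR and sequenced it. By the paper's methods, the authors used STAR (genome IRGSP-1.0) and edgeR, and versions and the scaling are not given in the sources used here. The deposited signal per gene, per the file headers, behaves as reads times 1 factor per library. The value of 1 read was estimated from the steps between low values, and 85.9 to 95.7% of values under 100 reads were whole within 0.03. This is too few for a count model, so limma was used in place of one. The deposited gene length gave values per kb. One column matched no sample and was not used.

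Genes above 10 with at least 10 reads in 1 library (27527 of 45990) were fitted as log2(value + 10) in limma 3.58.1 (R 4.3.3, statmod 1.5.0), with 13 group means, all 28 libraries, a trended robust prior and 15 residual degrees of freedom. Tests were two-sided, with Benjamini-Hochberg adjusted p under 0.05 as the threshold. Groups of 1 library are assumed to vary as the others do. The fit was tested on simulated data. Alternatives were other scalings, pseudocounts of 1 and 30, no filter, voom, the replicate block, the title prefix, the day of MM05, another prior and each library left out. For the differences in stage change, all but the pseudocounts were added after seeing the data. The members and lists were chosen with earlier results of these data known. Named genes are the 7 members, the 3 genes most alike to each tested member, and copper genes called where a member was called, from lists by identifier and annotation. Numbers were computed with Python 3.11.15, numpy 2.4.6, pandas 2.3.3 and scipy 1.17.1.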

Additional observations from a re-analysis of the deposited data

Results flagged for a closer look

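The change of COPT4 between stages differed between CC and other tissues in 3 comparisons, by limma's test of the difference itself on log2(value + 10). The change from 4 to 8 DAF was larger in CC than in OVT by 2.48 ± 0.57 (adjusted p = 0.0221). The change from 8 to 16 DAF was lower in CC than in OVT by -2.52 ± 0.64 (0.0117), and lower than in EN by -2.52 ± 0.59 (0.0208). The change of COPT7 from 8 to 16 DAF was higher in CC than in OVT by 5.04 ± 1.31 (0.013). In the COPT4 comparisons all OVT and EN libraries of 8 and 16 DAF were at 0. There 3 reads would have given 1.785 to 33.4 in OVT and 2.61 to 21.7 in EN. A change of COPT4 below these limits was not detectable in OVT or EN. In the COPT7 comparison the CC library of 8 DAF and the OVT library of 16 DAF were both at 0, where 3 reads would have given 28.5 and 33.4. Each of the 4 contains the single CC library of 8 DAF, whose 85.6 for COPT4 rests on 9 reads.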

How the results depend on the processing

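No alternative turned the direction of a called member difference. Members called by the F test (2) fell to 1 with voom, and ranged from 1 to 2 over libraries left out, being 1 without CC of 8 DAF. Tissue calls (5) were 2 with upper-quartile factors, 0 with voom, 3 with the replicate block and 2 with MM05 at 8 DAF, and 1 to 6 with a library left out (1 without CC of 8 DAF, 3 without OVT MM21 of 8 DAF). Stage calls (3) were 1 with upper-quartile factors, pseudocount 1 or MM05 at 8 DAF, 0 with voom or the replicate block, and 5 with pseudocount 30, no filter or the plain prior, and 1 to 4 with a library left out (1 without CC of 8 DAF). Aleurone calls (0) were 1 with no filter (COPT1 against EN, where EN was below detection), and 0 with any library left out. Differences in stage change (4) were 1 with upper-quartile factors, pseudocount 1, the replicate block or MM05 at 8 DAF, 7 with pseudocount 30, 8 with no filter, 0 with voom, and 0 to 7 with a library left out (0 without CC of 8 DAF, 2 without OVT of 16 DAF, 7 without CC MM18). Why was not tested. Same-numbered libraries deviated together in 6 of 25 pairs (r over 0.1, mean r 0.0412), and differently numbered ones in 4 of 49 (mean r -0.0209). In that check 13 of 25 libraries correlated best with their own number. In groups of 2 libraries the deviations mirror each other, so the check cannot settle whether the numbers pair the libraries. They were not taken as pairing in the main fit. The replicate block ended the calls of COPT4 in EN at 8 DAF (adjusted p = 0.165), in CC at 8 and 16 DAF between stages (0.304 and 0.406), and of COPT7 in OVT at 4 DAF (0.0604) and at 16 DAF between stages (0.133). Upper-quartile factors moved the median of all genes from -0.20 to -0.51 in OVT at 4 DAF and from -0.32 to -0.67 between CC stages at 8 DAF, and the share of calls that were higher from 52.0 to 29.0% and from 72.8 to 43.6%; in CC, EN (8 DAF) and OVT (16 DAF, stages) that share went from 79.4 to 54.6%, 42.2 to 71.7% and 39.9 to 24.1%, and trimmed-mean factors gave 66.8%, 57.2% and, for CC of 16 DAF, 41.3% against 29.4%. Depth limits what zeros show: libraries at 0 allow up to 33.4.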

Other observations

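In NE at 16 DAF, 2 libraries had no COPT7 read at 15099068 and 19298197 estimated reads, while the third had 332 at 97250200, and the same library held 29 of the 32 COPT1 reads of that group. COPT7 and COPT3 had the same values in 2 AL libraries, 1.05 in MM17 and 4.31 in MM18, from 4 and 17 reads of each gene.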
